A study of Mus musculus with 2 samples.

Results

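The genes described here are those of antigen presentation by MHC class I and class II molecules, with costimulatory genes and markers of Langerhans and dendritic cells. They were chosen by name, as 42 gene symbols, of which 41 stand in a deposited table of 23233 genes. H2-L is not in the table. They were compared between 2 libraries of dissociated ventral skin from 7-day-old C57BL/6 mice. One was made from cells that stained with a polyclonal antibody against the zinc transporter ZIP10 (ZIP10-positive) and the other from cells that did not (ZIP10-negative), after digestion with dispase and collagenase. Normal rabbit IgG was the staining control, and 7-AAD marked dead cells. Neither library carries an engineered allele or a drug treatment in its labels. The labels call the cells hair follicle cells, name no marker of a single cell type in the sort, and do not say how many mice were used or whether they were pooled. With 1 library per group there is no replicate and no test, so all differences describe these libraries, and genes are called higher or lower by size alone.

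MHC class II molecules are pairs of an alpha and a beta chain that present peptides from the endosome to CD4 T cells, and in skin they are a hallmark of Langerhans cells, other dendritic cells and many macrophages. MHC class I molecules are a heavy chain paired with beta-2-microglobulin that present peptides cut by the proteasome to CD8 T cells, and nearly every nucleated cell makes them. Langerhans cells are the resident antigen-presenting cells of the epidermis, named by the lectin langerin (Cd207). In a bulk sample of sorted cells, fewer cells of a type and less RNA per cell cannot be told apart.

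Values are in RPKM, reads scaled by transcript length and by library size, as deposited. The RPKM sums of the libraries were 703748 (ZIP10-positive) and 685692 (ZIP10-negative), and globin genes made up 3.46% and 59.4% of them. The typical gene was therefore read against a common shift: among 9620 genes at 1 RPKM or more in both libraries, the median gene was 1.97-fold higher in the ZIP10-positive library, a log2 ratio of 0.98. Ratios relative to the median gene have this shift taken out, and log2 ratios are of RPKM plus a pseudocount of 1, which understates low genes. Depth was estimated at about 2.78e+06 and 2.71e+06 reads, respectively, so that 1 read on a 2000-base transcript is worth about 0.200 RPKM and 0.205 RPKM. The ZIP10 gene itself, Slc39a10, had 49.4 RPKM in the ZIP10-positive library and 11.1 RPKM in the other, the direction of the labels of the sort. Relative to the median gene its log2 ratio was 1.12. It was under 2-fold when the libraries were scaled by the genes beyond the 50 most abundant, or without globin genes and Rn45s.

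Class II genes stood far above the median gene in the ZIP10-positive library, and most class I genes stood close to it. Of the 41 genes, 38 reached 1 RPKM in a library, and as deposited 23 of them were at least 2-fold higher in ZIP10-positive cells and 0 lower, where 44.1% and 3.55% of all 12249 such genes were. Measured against the median gene, 14 stood higher and 2 lower, compared with 14.7% and 11.4% of all genes compared. In 9 of the 38, 1 RPKM was reached in the ZIP10-positive library only, so that these could pass only by being high there. Among the 29 members at 1 RPKM or more in both libraries, 10 stood higher and 2 lower than the median gene by this measure, against 9.98% and 9.99% of 9620 genes, and as deposited 15 were higher and 0 lower, against 42.0% and 1.70%. The members under 1 RPKM in both libraries were H2-Eb2, Ciita and Cd80.

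**Figure D1:**
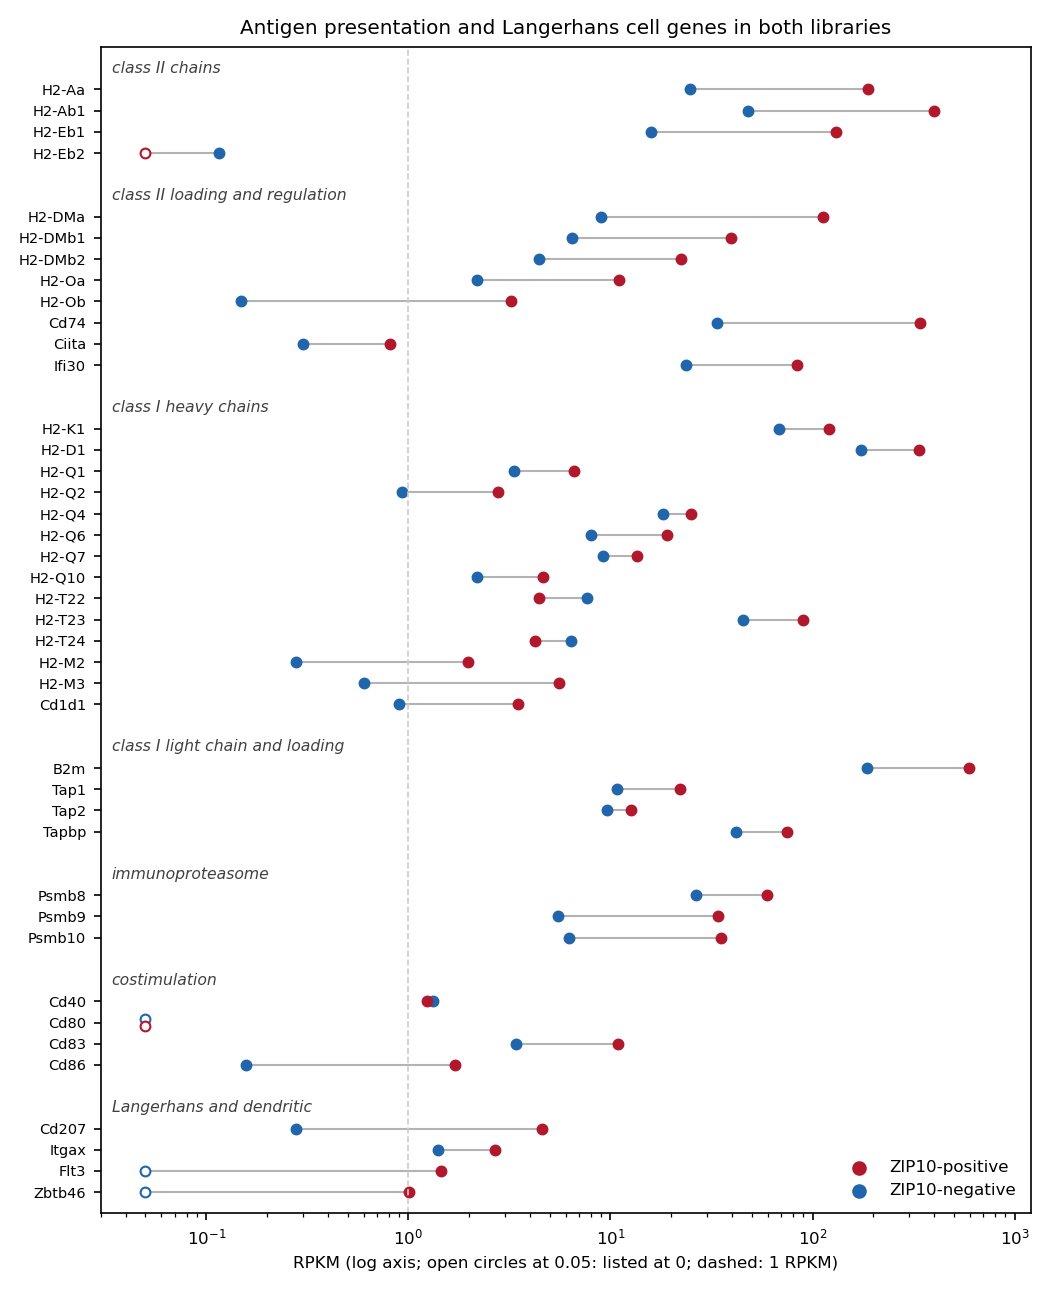
RPKM (log axis) of each of the 41 genes in the ZIP10-positive (red) and ZIP10-negative (blue) library, grouped by role, with 1 value per gene and library and no error bar. Class II genes are separated by wide gaps, as H2-Ab1 at 399 and 48.0 RPKM, while class I heavy chains lie closer, as H2-K1 at 120.4 and 68.4 RPKM.

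Promoters of class I and class II genes are known to share an upstream module, the X and Y boxes, bound by RFX, CREB-type factors and NF-Y. Because these classes differ in the data and share this module, the sequences are shown for members of both. RefSeq promoters (GRCm38.p6, 250 bases before to 50 bases after each start) were given for 31 of the 42 symbols, with none for H2-Ab1, Cd74 or Ciita among others. They were searched on both strands for TGANG, from the X box, followed by ATTGG, the core of the Y box, with 17 to 22 bases between. The spacing was set after looking at these promoters, so the counts are a description. The module was found in 6 of 9 class II and 6 of 12 class I genes with a promoter, against 1.92% of 27025 genes. ATTGG alone, on either strand, was found in 8 of these 9 and 11 of these 12 genes, against 41.1% of all genes. The full module was found in 0 of 3 immunoproteasome and 0 of 4 Langerhans and dendritic promoters. A match describes letters and is no evidence of binding. Capitals mark TGANG and ATTGG, and each sequence reads 5′ to 3′ on the strand of its gene.
H2-Aa: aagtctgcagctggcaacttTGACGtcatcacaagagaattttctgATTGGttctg
H2-Eb1: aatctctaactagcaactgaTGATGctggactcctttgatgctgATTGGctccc
H2-DMb1: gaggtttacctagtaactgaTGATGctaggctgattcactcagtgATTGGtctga
H2-Ob: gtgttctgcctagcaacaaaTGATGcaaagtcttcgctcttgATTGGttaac
H2-K1: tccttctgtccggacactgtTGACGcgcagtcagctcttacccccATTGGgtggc
H2-D1: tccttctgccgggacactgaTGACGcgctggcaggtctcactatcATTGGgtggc
H2-M3: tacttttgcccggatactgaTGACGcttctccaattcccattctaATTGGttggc
B2m: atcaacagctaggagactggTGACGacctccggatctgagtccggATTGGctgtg
The H2-Aa window is chr17:34287862-34287917 on the minus strand, and its match begins 74 bases before the start site. The H2-Eb1 window is chr17:34305764-34305817 (plus strand), that of H2-DMb1 is chr17:34153085-34153139 (plus) and that of H2-Ob is chr17:34238806-34238857 (plus). Of the class I genes, H2-K1 lies at chr17:34000354-34000408 (minus), H2-D1 at chr17:35262973-35263027 (plus), H2-M3 at chr17:37270168-37270222 (plus) and B2m at chr2:122147589-122147643 (plus). H2-Eb1 also holds a second TGANG that overlaps the one shown. The search allowed only 17 to 22 bases between TGANG and ATTGG, so no match could lie outside this range. Matches in class II genes reached both limits, with only that of H2-Ob under 19 bases. Those in class I genes were 19 to 22 bases apart.

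The 3 class II chain genes that reached 1 RPKM had nearly the same ratio. H2-Ab1, the beta chain of I-A, had 399 RPKM in the ZIP10-positive library and 48.0 RPKM in the other. H2-Aa, its alpha chain partner, stood at 187 and 24.7 RPKM. H2-Eb1, the beta chain of I-E, stood at 129.9 and 15.8 RPKM. These are ratios of 8.31, 7.59 and 8.21, or 4.22, 3.85 and 4.16 relative to the median gene. The chains also kept close proportions within a library: H2-Aa was 0.469 of H2-Ab1 in ZIP10-positive and 0.514 of it in ZIP10-negative cells, and H2-Eb1 was 0.326 and 0.330 of it. H2-Eb2, a further beta chain gene, was listed at 0 in the ZIP10-positive library and at 0.116 RPKM in the other. H2-Ea-ps, the I-E alpha chain locus, which is a pseudogene in C57BL/6 mice, was listed at 0 in both.

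Genes that load class II molecules followed the same direction with a wider range. Cd74, the invariant chain that guides new class II molecules to the endosome, stood at 339.99 RPKM against 33.8 RPKM, a ratio of 10.0. H2-DMa, a chain of the editor that swaps the invariant chain fragment for peptide, stood at 112 against 8.93 RPKM, a ratio of 12.5. The fewest whole reads that give the H2-DMa ratio are 90 and 7, with an exact binomial 95% interval of 5.84 to 32.1 for the ratio. Its beta chain partners H2-DMb1 and H2-DMb2 stood at 39.6 and 22.2 RPKM against 6.48 and 4.43 RPKM, ratios of 6.11 and 5.02, with intervals of 3.75 to 10.5 and 2.20 to 13.4. All these intervals cover counting error only and come from the fewest reads that give a ratio. Where the true reads are a multiple of these, an interval is narrower. The intervals overlap among the DM genes, so they do not separate the ratios of these genes. H2-DMb1 and H2-DMb2 are close relatives and can share reads.

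H2-Oa and H2-Ob encode the chains of H2-O, an inhibitor of the H2-DM editor that is best known from B cells. H2-Oa stood at 11.1 RPKM against 2.18 RPKM, from at least 26 and 5 reads, a ratio of 5.07 with an interval of 1.92 to 16.9. Relative to the median gene this interval is 0.973 to 8.58 and includes no difference. H2-Ob stood at 3.20 RPKM against 0.149 RPKM, where the smallest read numbers are 22 and 1 and the interval runs from 3.47 to 886. Ciita, the transactivator that switches class II genes on, stayed under the filter at 0.808 and 0.301 RPKM. Ifi30, a thiol reductase that unfolds antigens in the lysosome, had the smallest ratio of the class II members that reached 1 RPKM, at 84.0 against 23.7 RPKM, a ratio of 3.55 with an interval of 2.26 to 5.77 from at least 91 and 25 reads.

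In all, 9 of the 10 class II members that reached 1 RPKM were at least 2-fold higher relative to the median gene and 0 were lower, and 8 of 9 were higher among those at 1 RPKM or more in both libraries. Their median log2 ratio relative to the median gene was 1.72, against 0.094 over the 12249 genes compared. Ifi30 was the exception, at 0.83. H2-DMb2 and H2-Oa dropped under 2-fold, to log2 ratios of 0.94 and 0.87, when the libraries were scaled by the genes beyond the 50 most abundant. With a pseudocount of 5 the count fell from 9 to 6, with H2-DMb2 at 0.89, H2-Oa at 0.68 and H2-Ob at 0.48. H2-Ob, at 1.44 with the pseudocount of 1, was at 2.94 with one of 0.1.

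Class I genes were divided around the median gene. The classical heavy chain H2-D1 had 338 RPKM in the ZIP10-positive library and 174 RPKM in the other, and H2-K1, the other classical chain, stood at 120.4 and 68.4 RPKM. Their ratios of 1.94 and 1.76 became 0.984 and 0.893 relative to the median gene. B2m, the light chain of all class I molecules, stood at 595 and 186 RPKM, a ratio of 3.19, or 1.62 relative to the median gene. The heavy chains H2-K1 and H2-D1 together were thus 0.770 of B2m in the ZIP10-positive and 1.30 of it in the ZIP10-negative library. This ratio within a library does not depend on the scaling between libraries.

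Among nonclassical class I genes, which present narrower sets of ligands or act on other receptors, H2-T23 was the most abundant. H2-T23 encodes Qa-1, a ligand of NK cell receptors, and stood at 89.9 against 45.2 RPKM, a ratio of 1.99. Of the 6 H2-Q genes among the members 5 were at 1 RPKM or more in both libraries, with ratios from 1.38 for H2-Q4, at 25.05 and 18.2 RPKM, to 2.36 for H2-Q6, at 19.0 and 8.05 RPKM. H2-Q1, H2-Q7 and H2-Q10 lay between them with ratios of 1.97, 1.47 and 2.13, and H2-Q2, at 2.78 and 0.928 RPKM, had a ratio of 3.002. H2-Q8, outside the members and named after its values were seen, stood at 8.68 and 3.35 RPKM, a ratio of 2.59.

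A pair of H2-T genes had the opposite order. H2-T22, whose product is recognised by some gamma delta T cells, had 4.44 RPKM in the ZIP10-positive library and 7.64 RPKM in the other. H2-T24 stood at 4.26 and 6.41 RPKM. They were the only members at least 2-fold lower relative to the median gene, with log2 ratios of -1.50 and -1.31, and stayed so under each of the other scalings that remove a shift. With a pseudocount of 5 both fell short of 2-fold, at -0.95 and -0.80. As deposited they were less than 2-fold lower. Other H2-T genes did not share this order. H2-T9 and H2-T10, outside the members and named after their values were seen, stood at 16.3 and 3.81 RPKM against 7.44 and 2.15 RPKM. Relative to the median gene the log2 ratios of H2-T9 and H2-T10 were 0.14 and -0.11.

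H2-M3, which presents formylated peptides, was the only class I member at least 2-fold higher relative to the median gene with the pseudocount of 1, at 5.59 against 0.603 RPKM, and it reached 1 RPKM in the ZIP10-positive library only. Its log2 ratio of 1.43 became 0.62 with a pseudocount of 5. The smallest whole reads are 19 and 2, and the interval of its ratio of 9.27 runs from 2.24 to 82.0. H2-M2 stood at 1.98 and 0.278 RPKM, a ratio of 7.12, and its log2 ratio relative to the median gene was 0.79 with the pseudocount of 1 and 1.62 with one of 0.1. Cd1d1, a class I-like chain that presents lipids to NKT cells, stood at 3.51 and 0.898 RPKM, where the smallest reads are 4 and 1 and the interval of 0.386 to 192 for its ratio of 3.90 includes equal levels. These fewest reads imply a transcript of 610 bases, against 1946 bases for the longest annotated, so the true numbers may be larger and the interval narrower. Cd1d1 is a near relative of Cd1d2, at 2.07 and 0.354 RPKM.

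Over class I heavy chains and B2m together, 1 of 15 members lay 2-fold above the median gene and 2 below it, and the median log2 ratio was 0.014, 1.71 below that of class II. The sign of this class I median follows the scaling, and it was -0.26 when the libraries were scaled by the genes beyond the 50 most abundant. Class I genes have near-identical relatives that can share reads. For 9 of 14 heavy chain genes above 0 in both libraries, the smallest whole reads that give the ratio would need a transcript over 10% longer than any annotated one, against 0 of 11 class II members. For Ciita, among these 11, no read numbers were found. The same held for 14 of all 37 members above 0 in both, among them Tap1, Tap2, Tapbp, Cd40 and Itgax. Some of these matches had a high chance of arising, as 0.50 for H2-Q1. Whether shared reads account for such lengths was not tested. Without H2-Q, H2-T, H2-D1 and Cd1d1, the median of the remaining H2-K1, H2-M2, H2-M3 and B2m was 0.74, and the distance to class II was 0.98.

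**Figure D2:**
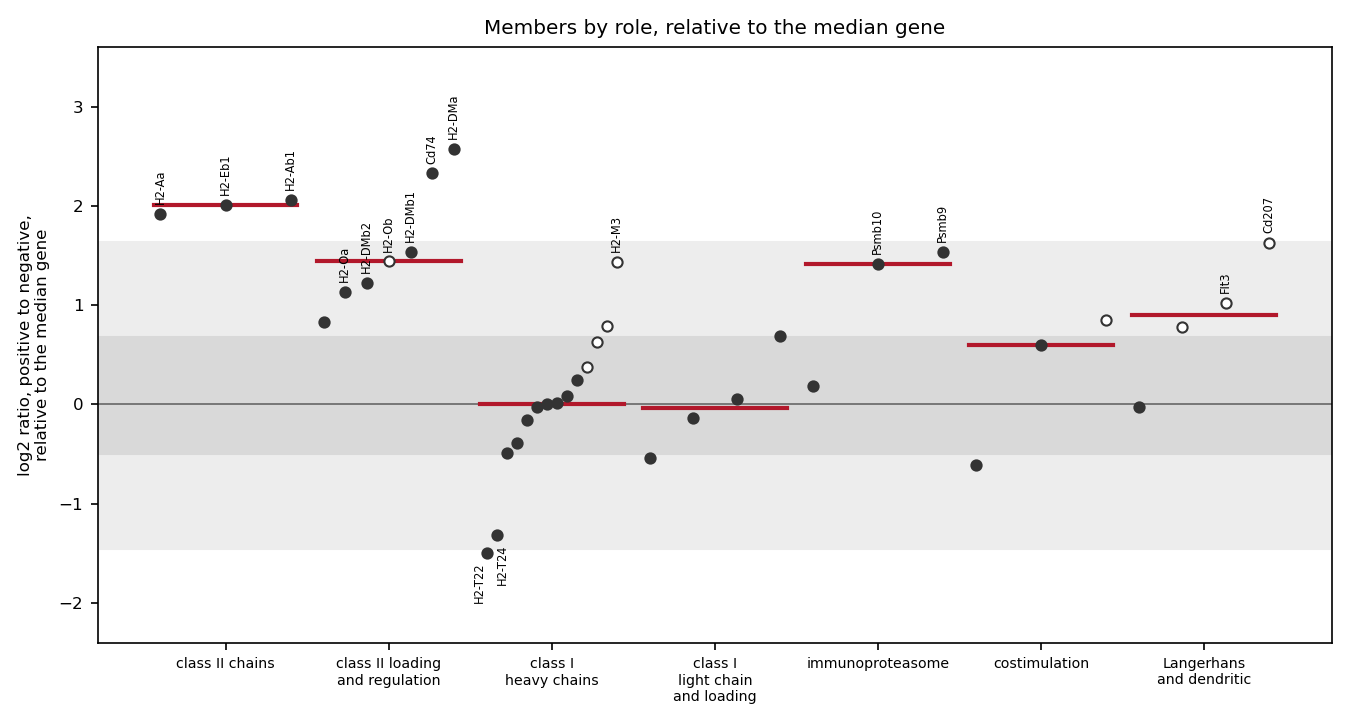
Log2 ratio of ZIP10-positive to ZIP10-negative, relative to the median gene, for the 38 members at 1 RPKM or more in a library, by role. Filled points reach 1 RPKM in both libraries and open points in the ZIP10-positive library only; red bars are group medians, dark grey spans the middle 50% of all 12249 genes (-0.50 to 0.68) and light grey spans the 5th to 95th percentile (-1.46 to 1.63). All 3 class II chains lie above the light band, and most class I heavy chains lie inside the dark band.

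The contrast of class II with class I was also read inside each library, where no scaling between libraries enters. H2-Ab1 was 3.32 times H2-K1 in the ZIP10-positive library and 0.702 times H2-K1 in the ZIP10-negative library. The level of the 3 class II chains H2-Aa, H2-Ab1 and H2-Eb1 summed was 1.56 times that of H2-K1 and H2-D1 in the first and 0.365 times in the second. Cd74 was 0.571 of B2m in the first and 0.182 of it in the second. The class II to class I ratio was 4.72, 4.28 and 3.15 times as large in ZIP10-positive cells by these measures. The genes whose promoter windows are printed above were chosen because they hold the module. Their ratios between libraries ran from 1.76 for H2-K1 to 21.5 for H2-Ob, the latter from at least 22 and 1 reads. Whether the module bears on these ratios was not tested.

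**Figure D3:**
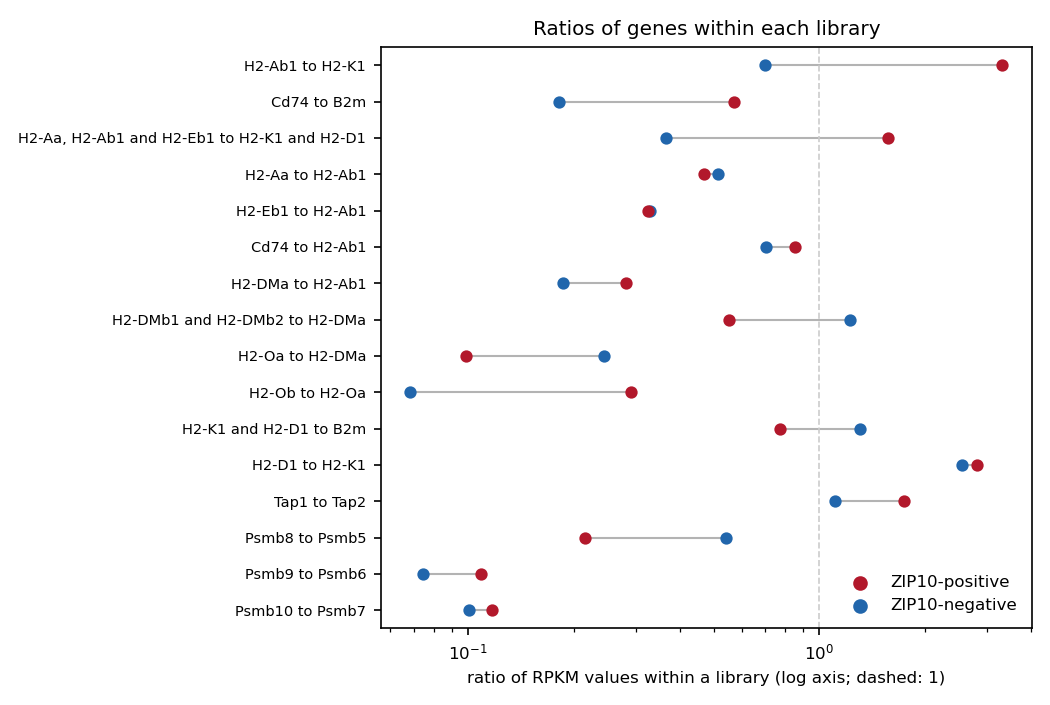
Ratios of RPKM values of named genes within the ZIP10-positive (red) and ZIP10-negative (blue) library, on a log axis, with 1 value per library. Class II to class I ratios lie apart, at 3.32 against 0.702 for H2-Ab1 to H2-K1, while H2-Eb1 to H2-Ab1 is nearly equal, at 0.326 against 0.330.

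Genes that carry peptides to class I molecules stood near the median gene. Tap1 and Tap2, the partners that form the peptide pump of the endoplasmic reticulum, stood at 22.04 and 12.6 RPKM against 10.7 and 9.66 RPKM. Tapbp (tapasin), which bridges this pump and class I molecules, stood at 75.1 against 42.0 RPKM. Relative to the median gene their log2 ratios were 0.056, -0.54 and -0.14, and none was 2-fold apart. Tap1 changed sign, to -0.24, when the libraries were scaled by the genes beyond the 50 most abundant.

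The immunoproteasome is a form of the proteasome in which inducible catalytic subunits replace the standard ones. Psmb9 had 34.0 RPKM in the ZIP10-positive library and 5.505 RPKM in the other, and Psmb10 stood at 35.0 and 6.22 RPKM. Their ratios of 6.18 and 5.64 have intervals of 1.82 to 32.6 and 2.75 to 13.0 from the fewest whole reads, 19 and 3 for Psmb9 and 52 and 9 for Psmb10. Relative to the median gene the interval for Psmb9 is 0.923 to 16.5 and includes no difference, while that for Psmb10 is 1.40 to 6.60. The fewest reads for Psmb9 imply a transcript of 400 bases, against 2884 bases for the longest annotated. If its true reads are a multiple of 19 and 3, its interval is narrower and may leave out no difference. Psmb8 stood at 59.2 and 26.4 RPKM, a ratio of 2.24, or 1.14 relative to the median gene, and its log2 ratio of 0.18 turned to -0.12 when the libraries were scaled by the genes beyond the 50 most abundant. The standard subunits that they replace were also higher in the ZIP10-positive library: Psmb6 had values of 313 and 73.9 RPKM (ratio 4.23), Psmb7 at 299 and 61.6 RPKM (4.85) and Psmb5 at 275 and 48.6 RPKM (5.65). Within a library, Psmb9 was 0.109 of Psmb6 in ZIP10-positive and 0.0745 of it in ZIP10-negative cells, and Psmb10 was 0.117 and 0.101 of Psmb7. Psmb8 went the other way, at 0.216 of Psmb5 in ZIP10-positive and 0.543 of it in ZIP10-negative cells.

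Costimulatory genes were low in both libraries. Cd83, a marker of activated dendritic cells that stabilises class II at the surface, stood at 10.9 against 3.41 RPKM, from at least 59 and 18 reads, a ratio of 3.20 with an interval of 1.86 to 5.76. Cd86, a ligand of CD28, stood at 1.69 against 0.158 RPKM, with 11 and 1 as the smallest reads and an interval of 1.56 to 462. Cd40, the receptor for help from T cells, stood at 1.23 and 1.32 RPKM, and Cd80, the other ligand of CD28, was listed at 0 in both. With the pseudocount of 1 none of Cd83, Cd86 and Cd40 was 2-fold apart relative to the median gene. With a pseudocount of 0.1 Cd86 passed it, at a log2 ratio of 2.02, and so did Cd40, at -1.003. The intervals for Cd83 and Cd86, taken relative to the median gene, run from 0.944 to 2.92 and from 0.791 to 234 and include no difference.

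The 4 members that mark Langerhans and dendritic cells were present at low levels. Cd207, Flt3 and Zbtb46 reached 1 RPKM in the ZIP10-positive library only, so that they could pass only by being high there. Itgax, the 1 member of this group at 1 RPKM or more in both libraries, was not 2-fold apart relative to the median gene. Cd207, the defining lectin of Langerhans cells, stood at 4.604 RPKM against 0.278 RPKM. The smallest reads for Cd207 are 17 and 1, and its ratio of 16.6 has an interval of 2.60 to 693. Its log2 ratio relative to the median gene was 1.62 with the pseudocount of 1 and 0.62 with one of 5. Flt3, the growth factor receptor of dendritic cells, and Zbtb46, a transcription factor of conventional dendritic cells, stood at 1.46 and 1.003 RPKM in ZIP10-positive cells and were listed at 0 in ZIP10-negative cells. Flt3 was just past 2-fold relative to the median gene, at a log2 value of 1.03, and fell short of it at 0.95 when the libraries were scaled by the genes beyond the 50 most abundant. A listed 0 can be a failed estimate, since the broadly expressed Psmg4 and Ndufaf3, at 69.5 and 24.97 RPKM in the ZIP10-positive library, were also listed at 0 in the other. Itgax, which encodes CD11c, stood at 2.68 and 1.40 RPKM, a ratio of 1.92 that equals 0.973 relative to the median gene.

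Markers of cell types that present antigen, and of other leukocytes, differed between the libraries beside these genes. Relative to the median gene, 14.7% of all genes compared were at least 2-fold higher and 11.4% lower. Of 7 Langerhans cell markers, 6 reached 1 RPKM and 3 were higher and 0 lower in this way. Of the 5 at 1 RPKM or more in both libraries, 2 were higher, Epcam and Sirpa. Cd24a, Id2 and Runx3 lay below the median gene, at log2 ratios of -0.83, -0.15 and -0.90. The summed level of the markers was 289 RPKM in ZIP10-positive cells against 194 RPKM in the others. It was led in both by Cd24a, which other skin cells also make. Of 13 conventional dendritic cell markers, 9 reached 1 RPKM and 4 were higher and 0 lower, but 1 of the 5 at 1 RPKM or more in both libraries was higher. These markers had sums of 48.2 and 10.3 RPKM, and 6 were listed at 0 in ZIP10-negative cells, Flt3, Zbtb46, Clec9a, Irf4, Cd209a and Clec10a. Of 14 macrophage and monocyte markers, 12 reached 1 RPKM and 9 were higher and 0 lower, but 1 of the 4 at 1 RPKM or more in both libraries was higher. These markers had sums of 1158 and 51.9 RPKM, of which Lyz2 gave 772 RPKM in ZIP10-positive cells, and 7 were listed at 0 in ZIP10-negative cells, among them C1qa, C1qb, C1qc and Lyz2. Of 6 B cell markers, 1 was higher and 0 lower (0 of the 4 at 1 RPKM or more in both libraries were higher), with sums of 68.0 and 29.4 RPKM, and Pax5 was listed at 0 in ZIP10-negative cells. The 3 plasmacytoid dendritic cell markers gave 0 higher and 0 lower, with sums of 31.6 and 12.6 RPKM.

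T cell markers were the reverse, with 6 of 6 at least 2-fold below the median gene, and sums of 124 RPKM in ZIP10-positive cells against 726 RPKM in the others. Pan-leukocyte markers lay closer together, with 0 of 8 higher and 2 lower and sums of 748 and 452 RPKM. Ptprc, which encodes the leukocyte antigen CD45, stood at 4.49 and 9.27 RPKM. For the remaining lists, 4 of 5 mast cell, 1 of 6 keratinocyte and 1 of 6 fibroblast markers were higher, and 0, 1 and 1 lower, while 7 of 7 erythroid markers were lower. Summed levels were 299 and 14.3 RPKM for mast cell, 2303 and 805 RPKM for keratinocyte, 531 and 447 RPKM for fibroblast, 3.63 and 1.54 RPKM for endothelial and 16377 and 283754 RPKM for erythroid markers. Libraries labelled as hair follicle cells thus held erythroid and leukocyte markers beside those of keratinocytes. Scaled by the genes beyond the 50 most abundant, or without globin genes and Rn45s, 2 Langerhans markers were higher and 2 lower, 2 conventional dendritic markers were higher, and 0 keratinocyte and 0 fibroblast markers were higher while 1 and 3 were lower. The counts for macrophage, B cell, T cell, mast cell and erythroid markers were equal under all 4 scalings. The part of each of these cell types in the class II, Langerhans and class I values was not tested.

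The wider pathway was read from 58 further genes, 40 of them outside the H2 family and 18 other H2 genes. Of the 40, 39 stand in the table and 35 reached 1 RPKM, of which 10 stood at least 2-fold above the median gene and 3 below it, against 14.7% and 11.4% of all genes. Of the 31 at 1 RPKM or more in both libraries, 8 were above and 3 below, against 9.98% and 9.99%. The first counts became 6 and 6 when the libraries were scaled by the genes beyond the 50 most abundant, and 5 and 7 when scaled without globin genes and Rn45s. Of the 18 other H2 genes 5 reached 1 RPKM, led by H2-T9 at 16.3 and 7.44 RPKM, and none was 2-fold apart relative to the median gene. By the mean of both libraries, the most abundant genes outside the family, besides Psmb5, Psmb6 and Psmb7, were Calr, Ctsd and Canx. Calr (calreticulin) and Canx (calnexin), chaperones that fold class I heavy chains, stood at 374 and 126 RPKM against 162 and 127 RPKM. Ctsd, a lysosomal protease, stood at 230.04 against 196 RPKM. Ctss, the cathepsin that trims the invariant chain, was named after its values were seen and had the largest ratio of the pathway genes above 0 in both libraries, at 83.3 RPKM against 0.960 RPKM. Psme1 and Psme2, the subunits of the PA28 proteasome activator, likewise named after their values were seen, stood at 101 and 132 RPKM against 18.1 and 36.6 RPKM. The regulators Nlrc5 and Rfx5 were likewise named after their values were seen. Nlrc5, the class I transactivator, and Rfx5, a subunit of the factor that binds the X box, stayed under 1 RPKM in both libraries. Other regulators of these boxes did not, and were also named after their values were seen. The NF-Y genes Nfya, Nfyb and Nfyc stood at 8.51, 9.79 and 28.5 RPKM against 3.99, 2.04 and 5.29 RPKM. The RFX genes Rfxap and Rfxank stood at 4.59 and 1.47 RPKM against 4.14 and 1.31 RPKM.

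**Figure D4:**
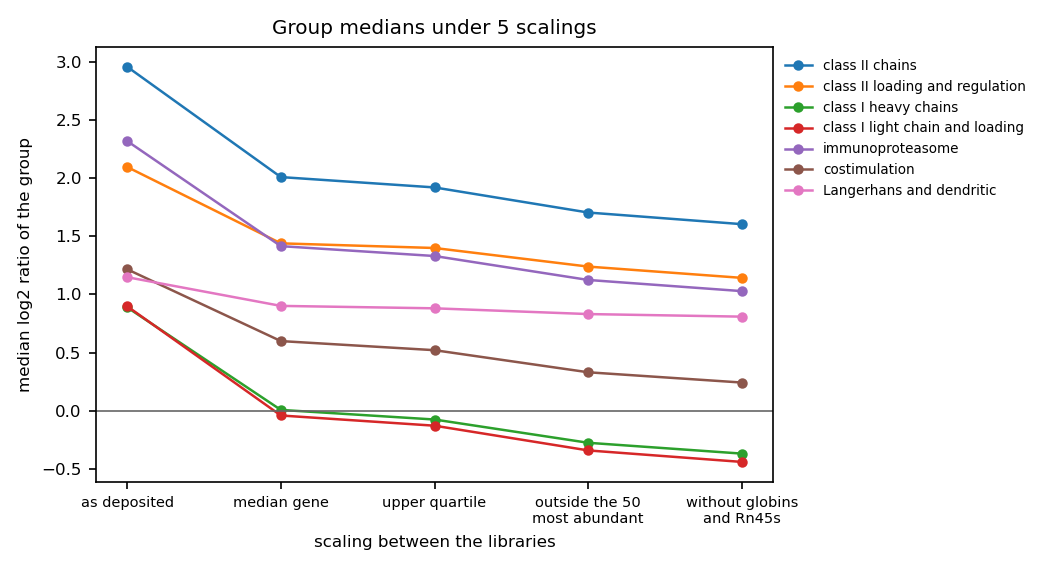
Median log2 ratio of ZIP10-positive to ZIP10-negative for the members of each of 7 roles under 5 scalings between the libraries, with 1 point per group and scaling and no error bar. Medians of class II chains stay between 1.60 and 2.96, while those of class I heavy chains run from 0.89 as deposited to -0.37 without globin genes and Rn45s.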

How the data were processed

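RNA of 2 sorted populations was sequenced as 1 library each, from 10 ng of total RNA with single reads of 50 bases, per the labels' protocols. The authors deposited RPKM values, 1 per gene symbol and library, and the unit comes from the name of the table. Per the submitters' processing notes, the tools were cutadapt, TopHat and Cufflinks, with build mm9. Versions, annotation, strand use and the treatment of reads with several matches were not given in the sources used here.

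Log2 ratios used a pseudocount of 1 and the 12249 genes that reached 1 RPKM somewhere. The median gene is the median log2 ratio of the 9620 genes at 1 RPKM or more in both. With 1 library per group no test was possible and a 2-fold difference was the call. The text names every member, up to 6 of the most abundant pathway genes and, chosen after their values were seen, further genes where said, Cd1d2 and those in the closing section. Members and lists were chosen with earlier results of these data known.

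Whole reads were sought as ratios of whole numbers times 0.975, which 64.6% of 1389 genes at or under 1 RPKM satisfied with numbers up to 20. Depth came from 485 genes with 1 transcript in GENCODE vM21 (another build), 25.2% of them within 1.4% of their mode, with an assumed offset of 199 bases. A read pair was used where its chance of arising was under 0.05 and its implied length exceeded the longest annotated transcript by at most 10%. Intervals are exact binomial at 95% on the fewest reads, and are too wide where the true reads are a multiple of these. Alternatives covered pseudocount, filter, scaling and near-identical genes. Python 3.11.15, pandas 2.3.3, numpy 2.4.6, scipy 1.17.1 and matplotlib 3.10.9 were used, and the ratio code was tested on simulated data.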

Additional observations from a re-analysis of the deposited data

How the results depend on the processing

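No paired analysis was possible because each group has 1 library. A median counted as moved when it changed by more than 1.5-fold (0.58 on the log2 scale) and a count when it changed by more than 1.5 times. No called member changed sign under any alternative run, but none could have done so. A change of pseudocount or filter keeps the sign, and each scaling moved the zero point by less than the 2-fold of a call. The scalings moved the zero point from the median gene by 0.31 (outside the 50 most abundant), 0.091 (upper quartile) and 0.42 (without globin genes and Rn45s). As deposited, medians were 2.66 for class II, 0.95 for class I, 2.96 for class II chains, 2.10 for class II loading, 0.89 for class I heavy chains, 0.90 for class I light chain and loading, 2.32 for the immunoproteasome and 1.22 for costimulation. The counts higher and lower became 5 and 0 for class I and 23 and 0 for all members. With a pseudocount of 5, which lowers the ratios of low genes, these were 0 and 0 for class I and 8 and 0 for all members, 13 members were higher as deposited, and the Langerhans and dendritic median was 0.23. With a pseudocount of 0.1 that median was 2.91 and 2 class I members were higher. Without near-identical relatives 0 class I members were lower, the class I median was 0.74 and its distance to class II 0.98. Among members at 1 RPKM or more in both libraries, an alternative chosen after seeing the data, 0 class I members were higher and 15 of all members were higher as deposited. The log2 difference in the class II to class I ratio was 2.24 for H2-Ab1 to H2-K1 and 1.65 for Cd74 to B2m. Depth limits Cd207, Cd86, H2-Ob, H2-M3 and Cd1d1 most.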

Other observations

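Ligands and receptors that act beside antigen presentation, from the list of pathway genes, were mostly higher in the ZIP10-positive library as deposited. They were chosen after their values were seen. The median gene was itself 1.97-fold higher there, and 44.1% of all genes compared were at least 2-fold higher. Cd274, which encodes the inhibitory ligand PD-L1, stood at 2.02 RPKM in ZIP10-positive cells against 0.455 RPKM in the others, and Cd276, another member of the B7 family, at 11.2 and 1.48 RPKM. Tnfsf9, the ligand of 4-1BB, stood at 4.90 RPKM in ZIP10-positive cells and was listed at 0 in the other library. Cd276 and Tnfsf9 were at least 2-fold higher relative to the median gene, at log2 values of 1.54 and 2.17. Cd70, the ligand of CD27, went the other way, at 1.69 and 3.46 RPKM. Icosl stood at 2.82 and 1.16 RPKM and the adhesion molecule gene Icam1 at 9.23 and 6.46 RPKM. Relative to the median gene, log2 ratios were 0.58 for Cd274, 0.20 for Icosl, -0.41 for Icam1 and -1.41 for Cd70. Tnfsf4 and Pdcd1lg2 were listed at 0 in both libraries.

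Genes through which interferon-gamma acts on MHC genes, also chosen after their values were seen, were divided. The receptor chains Ifngr1 and Ifngr2 stood at 21.6 and 20.8 RPKM against 4.66 and 7.69 RPKM. The kinase gene Jak1 stood at 8.32 against 10.6 RPKM, and Irf1, a transcription factor that acts on class I promoters, at 2.79 against 5.52 RPKM. Relative to the median gene, the log2 ratios were 1.12 for Ifngr1, 0.42 for Ifngr2, -1.20 for Jak1 and -1.55 for Irf1.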
